A study of Mus musculus with 24 samples.

Results

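The transcripts that CD4+ Th2 cells from WT mice gained and lost on stimulation with PMA and ionomycin were described from 6 of the 24 arrays of the series, 3 of resting and 3 of stimulated WT Th2 cells. These arrays were chosen by their labels alone, and each group holds the replicates A, B and C. The series compared WT cells with cells lacking BAF180, a subunit of the PBAF chromatin remodelling complex encoded by Pbrm1, in naïve CD4+ T cells and in Th2 cells, each at rest and after stimulation. Stimulated naïve cells, used below for comparison, received anti-CD3 (1 µg/ml) and anti-CD28 (2 µg/ml) over 24 h. Naïve cells came from the spleens and lymph nodes of Balb/c mice of 4 to 6 weeks, per the labels, and were isolated as naïve CD4+ cells to a purity of 95%. The methods of the study describe the mice as of a mixed background, so the strain is given here as labelled. To obtain Th2 cells, naïve cells were cultured on coated anti-CD3 (1 µg/ml) and anti-CD28 (2 µg/ml) with IL-4 at 10 ng/ml and a blocking antibody to IFN-γ at 10 µg/ml, IL-2 at 100 U/ml followed, and the cultures were expanded in IL-2 from day 3. Resting Th2 cells were used as they were, and stimulated Th2 cells then received PMA at 50 ng/ml together with ionomycin at 500 ng/ml over 1.5 h. Neither WT group carried a deletion. The arrays go back to 3 pairs of WT and BAF180-deficient animals, but no label ties a replicate letter to an animal. The sources used here do not state whether resting cells received the vehicle.

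Th2 cells are the helper T cells of responses to parasites and allergens. They keep the loci of IL-4, IL-5, IL-13 and IL-10 poised at rest and transcribe them when the T cell receptor is engaged. PMA, a diacylglycerol analogue, activates protein kinase C and the Ras and MAP kinase pathway, and ionomycin lets calcium into the cell, which activates calcineurin and NFAT. The pair therefore bypasses the receptor, and AP-1, NF-κB and NFAT are the transcription factors that the pair is known to engage.

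Each array gave an intensity for 25697 probes. The 14246 probes detected on at least 1 of the 24 arrays (detection p of at most 0.02) were tested, and each of the 10418 genes they stand for is given by its brightest probe in WT Th2 cells. Values are log2 intensities after background correction and quantile normalization, and a difference of 1 is a change of a factor of 2 in corrected signal. Between 9516 and 10378 probes were detected on the resting and between 9357 and 10038 on the stimulated WT Th2 arrays, and replicate arrays correlated at 0.966 to 0.985 across probes. The 3 arrays per group limit the precision, with a median standard error of 0.193 for a log2 difference. A gene was called induced or lost when the limma adjusted p was below 0.05 and the log2 difference at least 1 in size.

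By this rule 610 genes (5.86% of those tested) were induced and 743 (7.13%) were lost within 1.5 h. The largest gains were those of Il3, Ccl3, Inhba, Ccl4, Ccl1, Csf2 and Ifng, genes for secreted factors, and the largest losses those of Klf2, Myo6, Txnip and Ccnd3. The median difference was 1.46 among induced and -1.37 among lost genes, or 1.43 and -1.35 with genes that one of the groups did not detect set to the smallest change their signals allow, and the median of all genes was -0.01. Large changes were mostly gains, with 59 induced and 15 lost genes at 3 or beyond and 26 against 3 at 4 or beyond. The lowest stimulated value lay above the highest resting value for 605 of the 610 induced genes, and 730 of the 743 lost genes were separated the other way, where 41.2% of all genes did not overlap between the groups. The genes were called on these same arrays, so this separation largely follows from the calls and gives them no further support. In an exact two-sided permutation test 3 arrays against 3 cannot give a p below 0.1, so the p-values below are those of limma. Without the limit on size, 3889 probes (27.3%) had an adjusted p below 0.05. The number of calls depended on the processing. Unlike the main one, a second background correction (normexp) did not use the detection p-values, and its offset was 50 in place of 16. It left 332 induced and 338 lost genes, all of them among those above. This setting is called the offset of 50 below, but the background estimate changed together with the offset. In these bulk samples, fewer cells that express a gene and less RNA of it per cell cannot be told apart.

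**Figure D1:**
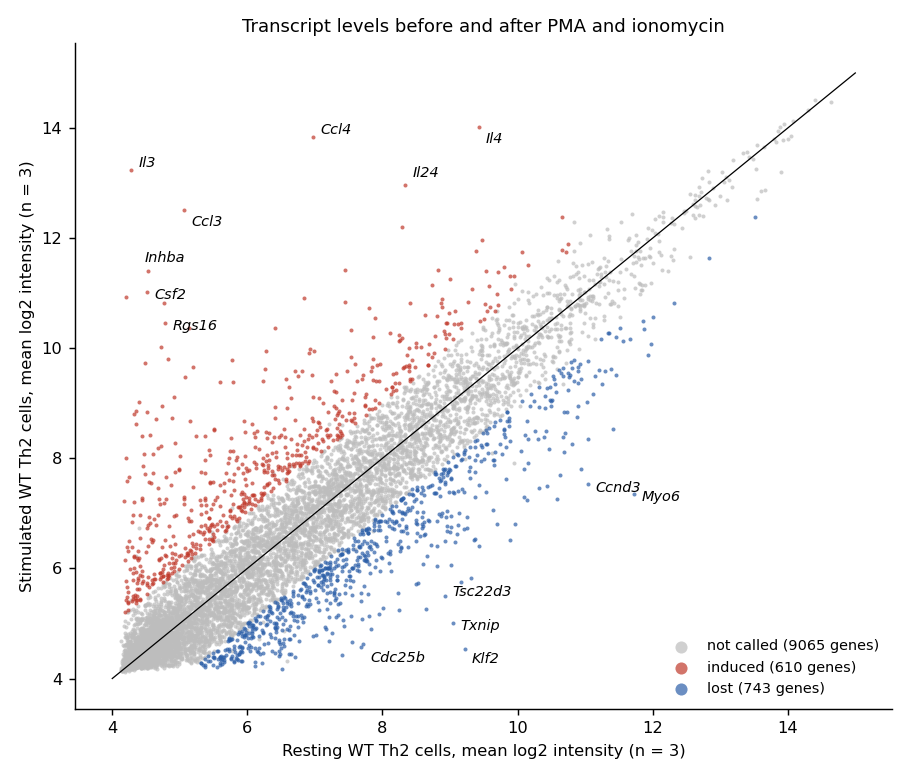
Mean log2 intensity of 10418 genes in resting (horizontal axis) and stimulated (vertical axis) WT Th2 cells, n = 3 arrays each, with the line of equality. The 610 induced genes (red) include genes at the floor of the scale at rest, such as Il3 and Inhba, and the 743 lost genes (blue) include Klf2, which was not detected after stimulation.

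Most induced genes were already detected at rest. Of the 610, 467 were detected on all 3 resting arrays and 55 on none of them, and all 610 were detected on all 3 stimulated arrays. Their median level rose from 5.97 to 7.87. Of the 743 lost genes, 740 were detected on all resting arrays and 59 on none of the stimulated ones, with medians of 7.67 and 6.10. Other probes of the same genes mostly moved the same way, 277 of 282 for induced and 346 of 370 for lost genes.

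The cytokines of type 2 immunity and of myeloid growth rose together. Of 14 listed genes 12 were tested, 10 were induced and none was lost, with a median difference of 3.97. Il3, the growth factor of mast cells and basophils, stood at 4.25, 4.33 and 4.26 on the resting and at 13.60, 13.00 and 13.09 on the stimulated arrays. It was not detected at rest, so that only a bound can be given, and it rose at least 396-fold (limma adjusted p = 5.19e-12). This bound compares the stimulated mean with the lowest signal among detected probes of each resting array. Csf2, which encodes GM-CSF and lies beside Il3 in the genome, went from 4.65, 4.62 and 4.29 to 11.01, 10.96 and 11.07, a difference of 6.50 (standard error 0.22, limma adjusted p = 3.02e-14). For both genes the groups were far apart.

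The signature cytokines of Th2 cells followed from different starting points. Il4 was already present at rest, at 10.19, 9.74 and 8.35, and reached 14.08, 14.02 and 13.97, a gain of 4.59 (standard error 0.49, limma adjusted p = 4.08e-07). The resting arrays differed among themselves by more than the stimulated ones did, and resting C was the lowest. Il5, which drives eosinophils, rose from 4.81, 4.35 and 4.16 to 8.19, 8.62 and 8.40 (difference 3.97, limma adjusted p = 2.16e-09) and was detected on 1 resting array. Il13, the cytokine of mucus and airway responses, rose from 5.02, 4.78 and 4.35 to 8.17, 8.02 and 8.49 (difference 3.51, limma adjusted p = 6.44e-09). No resting array of either gene reached the stimulated range.

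Il10, which encodes an immunosuppressive cytokine, stood at 7.73, 7.79 and 6.84 at rest and 11.53, 10.95 and 11.77 after stimulation, a difference of 3.97 (standard error 0.56, limma adjusted p = 1.55e-05). Il24, of the IL-10 family, rose by 4.63, from 9.43, 8.83 and 6.76 to 12.44, 13.09 and 13.39 (limma adjusted p = 3.41e-07). As for Il4 and Il10, its resting array C was the lowest. The EGF receptor ligand Areg was not detected at rest and rose at least 16.3-fold, Lif rose by 2.36, and the macrophage growth factor Csf1 rose by 1.20 (limma adjusted p = 3.76e-09, 2.48e-07 and 9.79e-07). The tested members without a call were Osm, with a difference of -0.96, and Il6, which was detected on 2 of the stimulated and on none of the resting arrays.

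**Figure D2:**
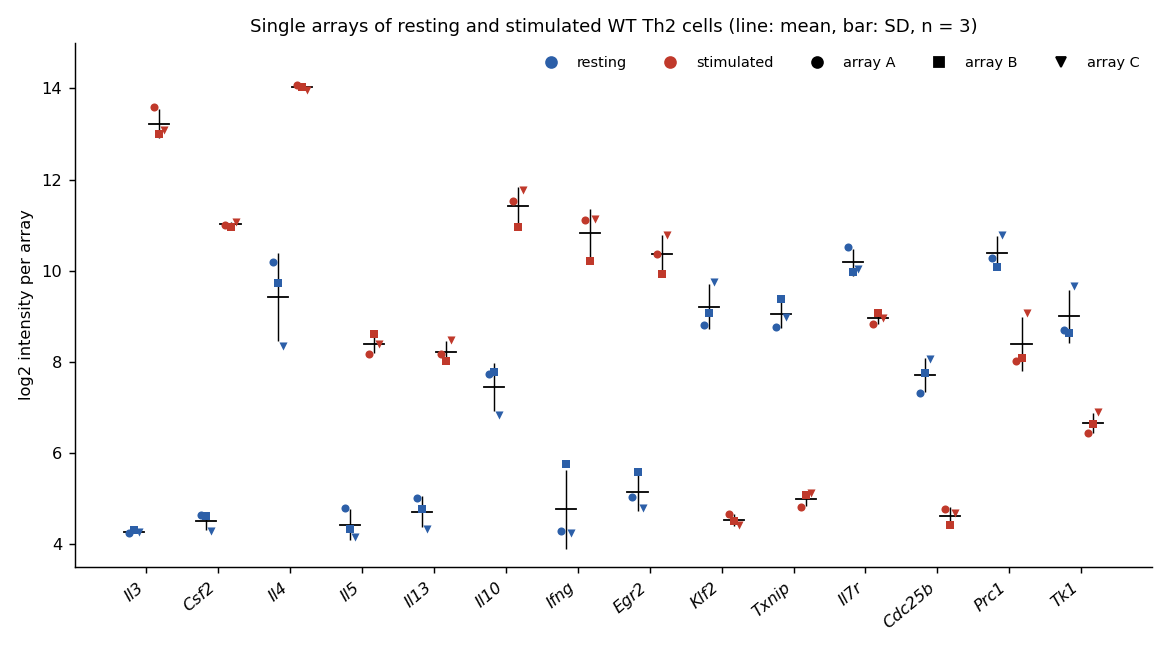
Log2 intensity of 14 genes on each of the 3 resting (blue) and 3 stimulated (red) arrays of WT Th2 cells, with the mean as a line and the SD as a bar. The groups are apart for all 14 genes, and the stimulated arrays of Il4 all lie near 14 while its resting arrays span 8.35 to 10.19.

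Cytokines that mark other helper fates were induced in the same cultures. Among 20 listed other cytokines and TNF family ligands 17 were tested, with 12 induced, 2 lost (Ltb and Il16) and a median difference of 3.16. Ifng, the signature cytokine of Th1 cells, read 4.29, 5.77 and 4.25 at rest, where only array B detected it, and 11.11, 10.21 and 11.14 after stimulation (difference 6.05, standard error 0.40, limma adjusted p = 7.25e-10). The Th17 cytokine genes Il17a and Il17f were not detected at rest and rose at least 9.64-fold and at least 10.7-fold (limma adjusted p = 9.86e-07 and 5.12e-08). Il21, a product of follicular and Th17 cells, went from 4.85, 4.36 and 4.19 to 9.11, 8.90 and 6.22, and its stimulated array C was far below the other 2 (difference 3.61, limma adjusted p = 0.000132). TNF family ligands rose as well, with Tnf at 4.46, Tnfsf14 (LIGHT) at 4.39 and Tnfsf11 (RANKL) at 4.33 (limma adjusted p = 2.12e-09, 2.44e-12 and 1.43e-11).

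Of 14 listed chemokines 11 were tested, 6 were induced and none was lost. Ccl3 and Ccl4, which attract monocytes and T cells, stood at 4.77, 5.21 and 5.21 and at 6.67, 7.16 and 7.11 on the resting arrays. They reached 12.36, 11.81 and 13.36 and 14.20, 13.66 and 13.63 on the stimulated ones, differences of 7.45 and 6.85 (limma adjusted p = 4.17e-11 and 6.29e-08). Ccl1, the ligand of the Th2 receptor CCR8, was not detected at rest and rose at least 80.6-fold (limma adjusted p = 9.29e-12). Ccl5 rose by 2.69, Cxcl2 at least 8.37-fold and Xcl1 at least 6.16-fold (limma adjusted p = 4.44e-05, 5.94e-05 and 0.001). The 5 chemokines not called included the Th2 attractant Ccl17 and the IFN-γ target Cxcl9, which were detected on none of the 6 arrays, and Cxcl10, which was detected on 1.

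The 15 largest gains also held genes outside the cytokine and chemokine lists. Inhba, which encodes the subunit of activin A, was at 4.69, 4.25 and 4.66 at rest and 11.50, 11.03 and 11.70 after stimulation (difference 6.88, standard error 0.19, limma adjusted p = 1.49e-15), the lowest adjusted p of the named genes. Rgs16, a GTPase-activating protein that shortens chemokine receptor signals, rose by 5.67, the trophoblast glycoprotein gene Tpbg by 5.30 and the semaphorin gene Sema7a by 4.98 (limma adjusted p = 8.22e-09, 5.18e-10 and 9.26e-13). Bdh2, which encodes a cytosolic dehydrogenase, went from 4.25, 4.61 and 4.58 to 9.99, 9.08 and 10.14 (difference 5.26, limma adjusted p = 9.16e-12). None of the resting arrays of these 5 genes reached the stimulated range, but genes with overlapping groups were not eligible for the 15 largest gains. Among the 17 tested RGS and small G protein genes, 5 were induced, with Rgs1 at 1.95 and Rrad at 1.90, and Arl4c fell by 3.38 (limma adjusted p = 0.000159, 7.60e-05 and 2.30e-09).

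Inhibitory surface molecules were prominent among the induced genes. Of 12 tested coinhibitory genes 6 were induced and none was lost, with a median of 1.41. Havcr2 (TIM-3) read 4.64, 4.26 and 4.30 at rest and 9.41, 8.96 and 8.70 after stimulation (difference 4.62, limma adjusted p = 2.33e-08). The PD-1 ligands Cd274 (PD-L1) and Pdcd1lg2 (PD-L2) rose by 3.06 and 3.02, Cd200 by 2.79, Cd160 by 1.97 and Lag3 by 1.93 (limma adjusted p from 8.03e-10 for Pdcd1lg2 to 0.00189 for Lag3). Ctla4 was at 6.90, 7.36 and 8.56 at rest and 7.79, 8.13 and 8.77 after stimulation. Its groups overlapped and it was not called (difference 0.62, limma adjusted p = 0.262).

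Among 19 tested activation receptors 7 were induced and 1, Tnfrsf18, was lost with overlapping groups (-1.04, limma adjusted p = 0.0262). The early activation antigen Cd69 rose from 7.88, 8.05 and 6.69 to 9.90, 9.86 and 9.77 (difference 2.30, limma adjusted p = 3.71e-06), Cd83 by 2.38, and the costimulatory receptors Tnfrsf4 (OX40) by 2.26 and Tnfrsf9 (4-1BB) by 2.04 (limma adjusted p = 0.000915, 0.0326 and 0.00136). The call of Tnfrsf4 was lost in 4 of the 6 fits without 1 array, in which its difference lay between 1.86 and 2.74. Receptors for cytokines went both ways, with 5 of 28 induced and 4 lost (1 and 2 with the offset of 50). In the main fit 5.86% of all genes were induced and 7.13% lost. The IL-1 decoy receptor Il1r2 rose by 2.60 and its partner chain Il1rap by 1.88 (limma adjusted p = 3.29e-05 and 6.56e-07). Ifngr1, the binding chain of the IFN-γ receptor, fell from 8.17, 8.36 and 9.05 to 5.41, 5.80 and 6.00 while Ifng rose (difference -2.79, limma adjusted p = 1.36e-06).

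Of 15 tested receptors of migration 2 were induced and 3 lost, where 5.86% of all genes were induced and 7.13% lost. The Th1 receptor Cxcr3 rose by 1.77 and the Th2 receptor Ccr8 by 1.20 (limma adjusted p = 4.69e-05 and 0.0032), while the leukotriene B4 receptor Ltb4r1 fell by 2.13, and S1pr4, a receptor of the lipid S1P, fell at least 3.51-fold (limma adjusted p = 2.18e-05 and 3.41e-05). Cxcr4 fell by 1.48, but its groups overlapped and the call was lost in 4 of the 6 fits without 1 array, with differences between -2.09 and -0.96. In the T cell receptor pathway 6 of 25 genes rose and 2 fell. Its adaptor genes diverged, with Sh2d2a up by 1.68 and Lat by 1.29 and Fyb down by 2.26 (limma adjusted p = 0.000106, 0.0388 and 3.09e-06). Lat lost its call in 3 of those 6 fits. The receptor chains Cd3d, Cd3e and Cd3g differed by -0.13, -0.35 and -0.69 and were not called.

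Immediate early transcription factors are those that signalling switches on without new protein. Of 31 listed genes 27 were tested, 11 were induced and none was lost. The zinc finger genes Egr2 and Egr1 led the group. Egr2, which limits T cell activation, rose from 5.04, 5.58 and 4.80 to 10.36, 9.92 and 10.79 (difference 5.21, limma adjusted p = 4.29e-09), and Egr1 from 6.46, 6.72 and 6.03 to 10.33, 10.04 and 10.74 (difference 3.97, limma adjusted p = 1.63e-08). The nuclear receptor gene Nr4a3 was not detected at rest and rose at least 6.08-fold (limma adjusted p = 0.000229). The bZIP gene Atf3 rose by 2.27 (limma adjusted p = 0.0207), a call that was lost in 4 of the 6 fits without 1 array. Other members with a call, named after their values were seen, were Myc (2.13), Jun (1.46), Junb (1.11) and Fosl1 (at least 2.94-fold). Fos, the classical member of the class, stood at 6.61, 6.72 and 4.82 at rest and 6.00, 5.84 and 5.85 after stimulation and was not called (limma adjusted p = 0.837). Fosb and Egr3 were detected on none of the 6 arrays at 1.5 h. With the offset of 50, 5 of the 27 genes kept a difference of at least 1, among them Egr2 and Egr1.

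NF-κB subunits and their inhibitors were both among the induced genes. Of 22 tested genes 11 were induced and none was lost, with a median of 1.05. The inhibitors Nfkbid and Nfkbia (IκBα) went from 7.74, 7.56 and 7.04 to 10.97, 10.57 and 10.98 and from 6.40, 6.86 and 7.18 to 9.58, 9.97 and 9.22, gains of 3.39 and 2.77 (limma adjusted p = 3.18e-07 and 1.33e-07). The subunit gene Nfkb2 rose by 2.42 and the survival gene Bcl2a1d by 2.79 (limma adjusted p = 8.22e-07 and 6.58e-09). Bcl2a1d is 1 of a family of near-identical copies, whose transcripts a probe may not tell apart.

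Among 34 tested lineage transcription factors 11 were induced and none was lost. The Th2 regulator Gata3 rose from 9.75, 9.27 and 9.77 to 10.61, 10.49 and 11.13 (difference 1.15, limma adjusted p = 5.12e-05). Its groups did not overlap, but the difference was 0.95 in the lowest of the 6 fits without 1 array, and 2 of them fell short of the limit of size. The Th1 regulator Tbx21 (T-bet) rose from 4.43, 4.31 and 5.06 to 7.47, 7.34 and 8.38 (difference 3.13, limma adjusted p = 4.18e-08). Zeb2 rose by 3.48, Irf8 by 2.86, and Bcl6, the regulator of follicular helper cells, by 1.44 (limma adjusted p = 5.18e-10, 4.69e-07 and 0.00175). Foxp3 differed by -0.37 and was not called (limma adjusted p = 0.367), and the Il4 activator Maf was detected on 1 of the 6 arrays.

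Of 14 listed markers of helper fates other than Th2, 13 were tested and 7 were induced, against 6 of 15 tested Th2 markers, and no member of either list was lost. The summed log2 levels of the other fates lay between 61.6 and 64.9 at rest and between 83.5 and 89.1 after stimulation, and those of Th2 between 110 and 113 and between 127 and 130. The Th2 list also holds genes of T cells in general, such as Cd3d, Cd3e, Cd3g, Cd4 and Thy1. The counts and sums of the lists are therefore not like for like. The induced markers of other fates were Ifng, Il17a, Il17f, Il21, Tbx21, Cxcr3 and Bcl6. Whether they came from the same cells as Il4 was not tested, since the RNA was from whole cultures.

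The genes of the pathway that the agents engage did not move in one direction. Of 15 tested calcium and NFAT genes 3 were induced and 5 lost. The calcium channel gene Orai1 rose from 7.12, 7.75 and 7.92 to 9.78, 9.47 and 9.87 (difference 2.11, limma adjusted p = 3.14e-05), Camk2d rose by 2.19 and Nfat5 by 1.77 (limma adjusted p = 3.18e-09 and 3.10e-07). The channel's calcium sensor Stim1 fell by 1.24, the calcineurin catalytic chains Ppp3ca and Ppp3cb by 1.11 and 1.29, Nfatc3 by 1.35 and Rcan3 by 1.34 (limma adjusted p = 0.000562, 0.000248, 5.47e-06, 9.30e-07 and 0.000355). Stim1 lost its call in 1 and Ppp3ca in 2 of the 6 fits without 1 array. The probes of Nfatc1, whose short isoform is known to be induced by NFAT, did not move together. The brightest differed by -0.57 (limma adjusted p = 0.0205), while 1 of the other 4, from 5.54 at rest to 7.15 after stimulation, rose by 1.62 (limma adjusted p = 0.000456). Rcan1, a classical calcineurin target, was not called (0.15, limma adjusted p = 0.721).

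Receptors of the PMA signal were among the losses. Of 23 tested genes of protein kinase C, diacylglycerol and Ras 2 were induced and 5 lost, beside 5.86% and 7.13% of all genes. Prkd2, encoding the diacylglycerol-activated protein kinase D2, fell from a mean of 10.94 ± 0.20 to 7.81 ± 0.09 (SD, n = 3, difference -3.14, limma adjusted p = 6.77e-11). Rasgrp1, the diacylglycerol-binding activator of Ras in T cells, fell by 2.01, Prkcq, encoding protein kinase C theta, by 1.75, and Dgka, whose product removes diacylglycerol, by 1.27 (limma adjusted p = 3.18e-05, 3.17e-07 and 1.58e-05). The groups did not overlap for any of these 4 genes.

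Of 18 tested genes of MAP kinase feedback 6 were induced and none was lost. The phosphatase genes Dusp4 and Dusp2 rose by 3.36 and 2.65, the EGF receptor inhibitor Errfi1 by 2.52 and the Ras pathway inhibitor Spred1 by 2.10 (limma adjusted p = 3.77e-05, 2.81e-08, 1.77e-06 and 2.96e-06). Of 20 tested genes of cytokine signalling 2 were induced and 4 lost. Stat5a and Jak2 rose by 3.01 and 2.60, while Stat4, the transducer of IL-12, fell by 2.28 and the STAT5 target Socs2 by 1.95 (limma adjusted p = 3.10e-07, 1.85e-08, 1.36e-07 and 3.62e-05). Of 14 tested regulators of mRNA decay, Zfp36l1 rose by 1.73 and Arid5a fell by 1.15, and Zfp36, a relative of the former, was not called (-0.32). Over all genes 5.86% were induced and 7.13% lost, and the counts of these lists are to be read beside those shares. With the offset of 50 the counts of induced and lost genes fell to 3 and 3 for calcium and NFAT, 0 and 4 for protein kinase C, diacylglycerol and Ras, 2 and 2 for cytokine signalling, 1 and 0 for mRNA decay, 1 and 2 for receptors of migration, 5 and 0 for activation receptors and 10 and 1 for the other cytokines and TNF family ligands. With Z-score normalization 3 genes of the T cell receptor pathway were induced and 2 lost.

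**Figure D3:**
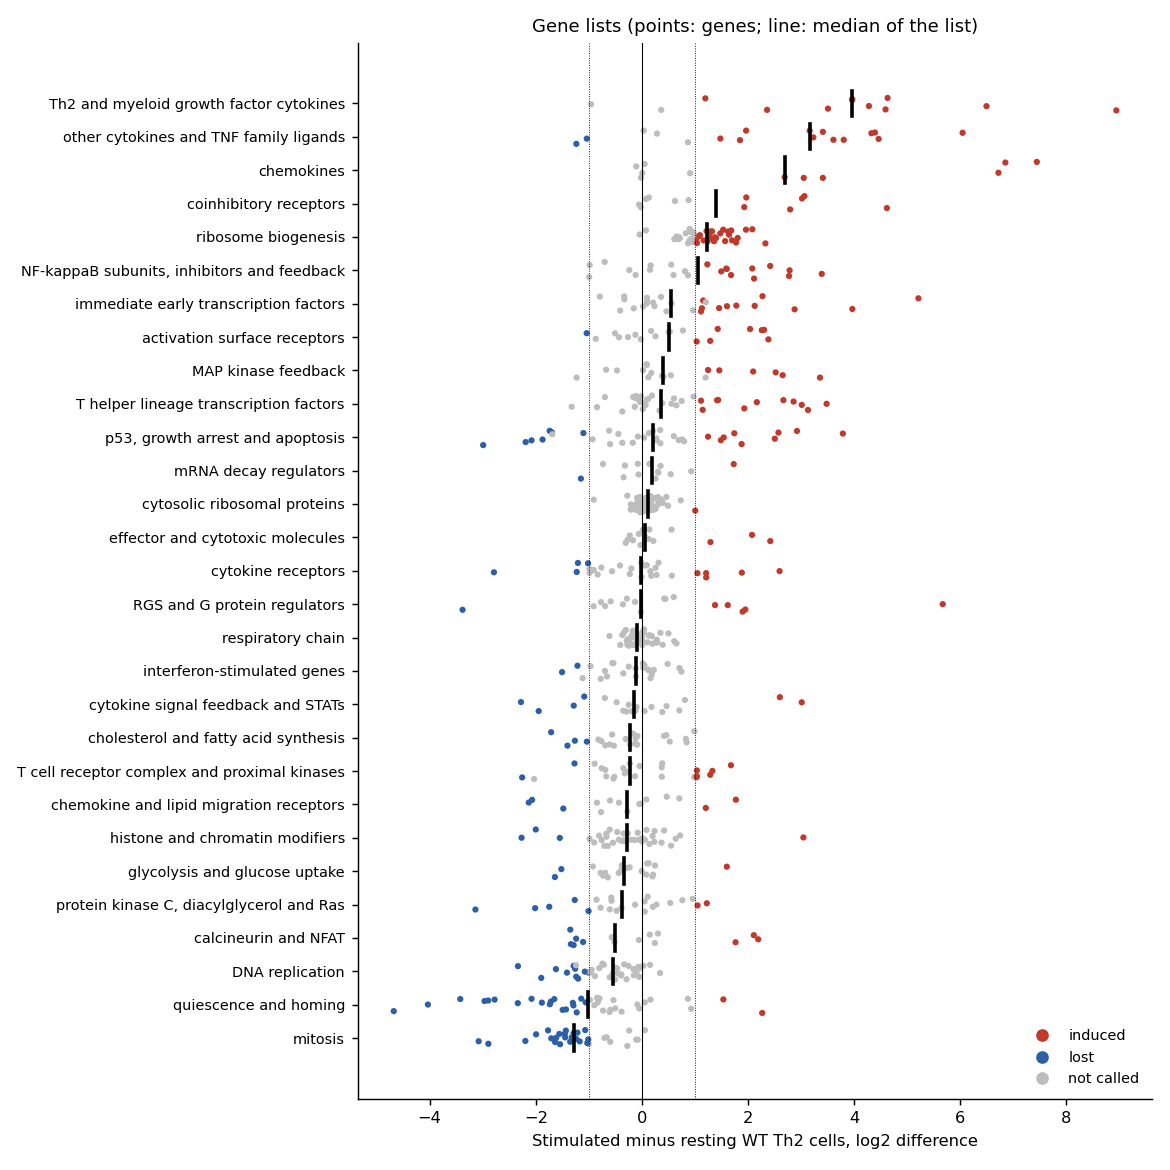
Log2 difference between stimulated and resting WT Th2 cells for the tested members of 29 gene lists, 1 point a gene, ordered by the median of the list (black line). Dotted lines mark a difference of 1 in either direction. The cytokine lists lie farthest to the right, with a median of 3.97 for the Th2 and myeloid growth factor cytokines, and the mitosis list farthest to the left at -1.29.

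Ribosome biogenesis moved upwards nearly throughout. Of 60 listed genes 44 were tested, 28 were induced, none was lost, and the median was 1.23 (18 induced with the offset of 50). A further 12 rose by less than 1 with an adjusted p below 0.05, which made 40 of 44, where 12.6% of all genes rose by that test. The largest differences were those of the small-subunit factor Rrp9 (2.33), the histone-binding assembly factor Grwd1 (2.08), and the pre-ribosome factors Noc3l (1.96) and Rrp12 (1.81). Grwd1 stood at 6.07, 6.14 and 6.14 on the resting and at 8.21, 8.21 and 8.17 on the stimulated arrays (limma adjusted p = 2.12e-09), with little spread in either group. The genes of the ribosomal proteins themselves did not follow. Of 59 tested, Rps27a was induced (1.01, limma adjusted p = 0.00251), its call was lost in 3 of the 6 fits without 1 array and with the offset of 50, and the median was 0.108.

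Over all genes 13.0% were called in either direction, and the counts for energy metabolism genes are to be read beside that share. Of 20 tested glycolysis genes 1 was induced, Hk2 (1.6006, limma adjusted p = 0.000356), which encodes the inducible hexokinase, and 2 were lost, Pfkm and Pdk1 (-1.64 and -1.52, limma adjusted p = 7.43e-06 and 0.000951), of which Pfkm alone was lost with the offset of 50. None of 45 tested respiratory chain genes was called, with differences from -0.61 to 0.65 and 1 gene at an adjusted p below 0.05. Of 23 tested lipid synthesis genes none was induced and 4 were lost (none with the offset of 50), led by the fatty acid elongase Elovl6 (-1.71) and the desaturase Scd2 (-1.40), with limma adjusted p = 3.63e-05 and 0.000609. The other 2, Scd1 and Mvd, overlapped between the groups and each lost the call in 4 of the 6 fits without 1 array.

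The losses were led by Klf2, the Krüppel-like factor that keeps T cells quiescent and able to recirculate. Klf2 stood at 8.81, 9.08 and 9.75 at rest and 4.68, 4.51 and 4.43 after stimulation, where it was not detected on any array, and so fell at least 23.5-fold (limma adjusted p = 2.44e-12). Txnip, which limits glucose uptake, fell from 8.77, 9.37 and 8.99 to 4.82, 5.08 and 5.13 (difference -4.03, standard error 0.19, limma adjusted p = 5.45e-12). Both are in a list of 42 quiescence and homing genes, of which 38 were tested, 19 were lost and 2 were induced (Gimap5 and Slfn2), with a median of -1.02. Tsc22d3 (GILZ), a glucocorticoid-induced inhibitor of AP-1 and NF-κB, fell by 3.43 and Gimap7 by 2.97 (limma adjusted p = 7.06e-09 and 6.88e-07). The IL-7 receptor gene Il7r fell from 10.53, 9.97 and 10.05 to 8.82, 9.07 and 8.97 (difference -1.23, limma adjusted p = 0.00176). Other lost members, named after their values were seen, were the naïve T cell regulators Tcf7 (-1.73) and Lef1 (-1.29) and the PI3K inhibitor gene Pik3ip1 (at least 3.61-fold lower).

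Several of the largest losses concerned the cytoskeleton and its GTPases. The unconventional myosin gene Myo6 read 11.85, 11.86 and 11.49 at rest and 6.30, 6.45 and 9.32 after stimulation (difference -4.38, standard error 0.60, limma adjusted p = 1.02e-05). Its stimulated array C stood well above the other 2 but below all resting arrays. The guanine nucleotide exchange factor gene Arhgef18 fell by 3.47, the GTPase-activating Arhgap45 fell by 3.15, and Add3, encoding the membrane skeleton protein adducin gamma, by 3.37 (limma adjusted p = 2.12e-08, 1.49e-08 and 4.17e-11). The sialyltransferase gene St8sia4 fell by 3.41, the tetraspanin gene Tspan32 by 3.02 and Fam78a by 3.33 (limma adjusted p = 4.28e-07, 1.96e-08 and 1.11e-09). No resting array of these 7 genes was as low as any stimulated array, but genes with overlapping groups were not eligible for the largest losses.

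Most tested transcripts of cell division fell within the 1.5 h. Of 40 listed mitosis genes 31 were tested, 22 were lost and none was induced, with a median of -1.29 and a highest difference of 0.06 (14 lost with the offset of 50). The phosphatase gene Cdc25b, which starts mitosis through CDK1, fell from 7.32, 7.75 and 8.06 to 4.78, 4.42 and 4.69 (difference -3.08, limma adjusted p = 3.61e-10). The spindle gene Nusap1 fell from 10.11, 10.05 and 10.27 to 6.91, 6.79 and 8.03 (difference -2.89, limma adjusted p = 3.82e-07), Birc5 (survivin) by 2.20 and Prc1, a bundler of spindle microtubules, by 2.00 (limma adjusted p = 1.10e-05 and 4.28e-05). Stimulated array C was the highest of its group for Nusap1, Birc5 and Prc1. Depdc1b, a further division gene, fell by 3.11, and Ccnd3, encoding the G1 cyclin D3, fell from 11.12, 10.89 and 11.10 to 7.35, 7.82 and 7.41 (difference -3.51, limma adjusted p = 8.35e-08 and 6.77e-11).

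Of 37 tested DNA replication genes 10 were lost and none was induced, with a median of -0.546 (6 lost with the offset of 50). Tk1, the thymidine kinase of S phase, went from 8.70, 8.63 and 9.67 to 6.45, 6.64 and 6.90 (difference -2.34, limma adjusted p = 9.24e-07), the single-strand binding gene Rpa1 fell by 1.90, thymidylate synthase (Tyms) by 1.62 and the primase chain Prim2 by 1.41 (limma adjusted p = 3.18e-09, 0.00184 and 4.76e-05). Of 35 tested genes of growth arrest and apoptosis 9 were induced and 7 lost. Phlda1, Pim3 and the stress gene Gadd45b rose by 3.79, 2.92 and 2.58, while the BH3-only death gene Bbc3 (PUMA) fell from 8.50, 8.55 and 7.66 to 5.45, 5.56 and 4.73 (difference -2.99, limma adjusted p = 1.77e-06, 8.89e-06, 3.04e-06 and 1.33e-07).

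Chromatin genes were mostly without a call, as were genes at large, of which 5.86% were induced and 7.13% lost. Of 38 tested, 1 was induced and 3 were lost. Kdm6b, which removes the repressive H3K27 methyl mark, rose from 5.17, 5.42 and 4.40 to 7.64, 8.73 and 7.76 (difference 3.04, limma adjusted p = 2.83e-06). Hdac5, the alternative SWI/SNF ATPase gene Smarca2 (Brm) and the acetyltransferase gene Ep300 fell by 2.27, 2.00 and 1.55 (limma adjusted p = 1.49e-08, 2.77e-06 and 7.99e-07). Pbrm1, the gene deleted in the mutant cells of the series, read 9.06, 9.06 and 8.88 at rest and 8.52, 8.14 and 8.21 after stimulation in WT cells. The groups did not overlap, but the difference of -0.71 (limma adjusted p = 0.0232) was below the limit of size. Its 2 other probes differed by 0.02 and -0.16. Of 24 tested interferon-stimulated genes none was induced and 2 were lost, Cmpk2 by at least 2.21-fold and Ifit2 by 1.22 (limma adjusted p = 2.71e-05 and 0.000149), but 8 were lost without resting array C and none with the offset of 50. Of 15 tested effector and cytotoxic genes 3 were induced, namely Srgn (2.42), which encodes the granule proteoglycan serglycin, Nkg7 (2.08) and Lgals3 (1.29), and Prf1 (0.56) was not called.

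The label of the cells was checked against defining markers. Cd3d, Cd3e, Cd4 and Thy1 were detected on all 6 arrays, as were Gata3 and Ccr8, while Maf was detected on 1 array, Il1rl1 on 1 and Ptgdr2 on 1. No marker of B cells (13 tested), myeloid cells (13), CD8 and NK cells (7) or mast cells and basophils (4) was called. A call compares stimulated with resting cells and does not show that a cell type was absent. On all 3 resting arrays 3 markers of B cells, 2 of CD8 and NK cells, 1 of mast cells and basophils and 0 of myeloid cells were detected. Of the myeloid markers 8 were detected on none of the 6 arrays, among them Lyz2, Cd14, Cd68 and Tyrobp, and the summed log2 level was 58.4 to 58.9 at rest and 57.3 to 59.1 after stimulation. The mast cell genes Cpa3 and Hdc were detected on 4 and on all 6 arrays, with differences of -0.18 and 0.22. B cell markers varied more, with sums of 63.7 to 79.8 at rest and 63.1 to 73.3 after stimulation, and Cd79b read 5.88, 4.74 and 7.88 and 4.23, 4.47 and 5.45. Their part in the results was not tested. None of 13 housekeeping genes was called.

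Whether the response differed without BAF180 was asked by comparing it with that of BAF180-deficient Th2 cells under the same treatment. All 610 induced and all 743 lost genes differed in the same direction there, and 462 and 572 of them were called. The share of all genes called in BAF180-deficient cells is not given here, so these counts have no background beside them. Their median differences were 1.32 and -1.29 in those cells. The genes were chosen by their differences in WT cells, which favours large WT values. These calls and medians therefore do not measure whether the response was weaker without BAF180. The interaction term found no probe of 14246 (0.0%) with a limma adjusted p below 0.05. At an unadjusted p below 0.05 there were 257 probes, where 712.3 would pass by chance, and the lowest adjusted p was 0.50. With fewer probes than chance would give, the test may be conservative for this term. Il10 rose by 3.97 in WT and by 3.09 in BAF180-deficient cells, Il4 rose by 4.59 and 4.09 and Txnip differed by -4.03 and -3.32. A p that misses the threshold does not show that the responses were equal.

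The other stimulation in WT cells, 24 h of anti-CD3 and anti-CD28 on naïve cells, called 1261 genes (12.1%) higher and 1138 (10.9%) lower. Of the 610 genes induced in Th2 cells 270 (44.3%) were among the former, which is 21.4% of them, and 35 (5.74%) were lower. Of the 743 lost genes 344 (46.3%) were also lower in naïve cells, 30.2% of those lower there, and 74 (9.96%) were higher. The 2 responses themselves differed at 2714 genes (26.1%) by the interaction test, including 293 of the induced and 340 of the lost genes. Markers of other cell types were lower in naïve cells after stimulation as well, 11 of 13 tested myeloid markers (median -2.66) and 6 of 13 B cell markers (median -1.43), and their part in the naïve differences below was not tested. Agent, duration and cell type differ together between the comparisons and cannot be told apart.

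Cell division genes moved in opposite directions in the 2 responses. Of the 31 mitosis genes 22 were higher in naïve cells after 24 h and none was lower, with a median of 1.47 against -1.29 in Th2 cells. Tk1 rose by 1.93 and Birc5 by 1.97 in naïve cells, and both fell in Th2 cells (interaction -4.27 and -4.17, limma adjusted p = 4.54e-08 and 3.68e-07). Of the 37 replication genes 28 were higher in naïve cells. Cdc25b differed by -3.08 in Th2 and -0.78 in naïve cells (interaction -2.30, limma adjusted p = 3.23e-06). Glycolysis, lipid synthesis and respiratory chain genes were called higher in naïve cells in 12 of 20, 10 of 23 and 16 of 45 cases.

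Ribosome biogenesis and quiescence genes moved the same way in both. In naïve cells 33 of the 44 ribosome biogenesis genes were higher (median 1.46) and 25 of the 38 quiescence genes lower (median -1.59), beside the falls of the myeloid and B cell markers. Klf2 fell by 5.71 and Txnip by 5.32 in naïve cells. Il7r fell by 3.51 there and by 1.23 in Th2 cells (interaction 2.28, limma adjusted p = 0.000165). Il4 rose by 2.71 in naïve cells (interaction 1.88, limma adjusted p = 0.0495). Il3 and Il5 were not detected in resting naïve cells and reached means of 7.82 and 5.69 there after stimulation, below their means of 13.23 and 8.40 in stimulated Th2 cells (limma adjusted p of the interaction 1.10e-06 and 0.000138).

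Of the immediate early genes 11 of 27 were induced in Th2 cells at 1.5 h, whereas 3 were higher and 9 lower in naïve cells at 24 h, and of the NF-κB genes 11 of 22 were induced in Th2 cells and 2 were higher and 9 lower in naïve cells, where myeloid and B cell markers fell too. Nfkbid rose by 3.39 in Th2 and fell by 2.42 in naïve cells (interaction 5.81, limma adjusted p = 3.71e-08), and Dusp2, Nfkbia, Egr1 and Cd69 also rose in the former and fell in the latter. Their interactions were 4.18, 4.17, 4.98 and 3.73 (limma adjusted p = 1.15e-08, 8.56e-08, 1.30e-07 and 9.09e-07). Ccl5 rose by 2.69 and fell by 2.40 in the same order (interaction 5.09, limma adjusted p = 1.74e-06). Havcr2 and Il10 differed by -0.71 and 0.40 in naïve cells and were not called there (interactions 5.33 and 3.56, limma adjusted p = 5.23e-07 and 0.00201). Tbx21 rose in both, by 3.13 and 2.42, and the difference of 0.71 did not pass (limma adjusted p = 0.208).

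**Figure D4:**
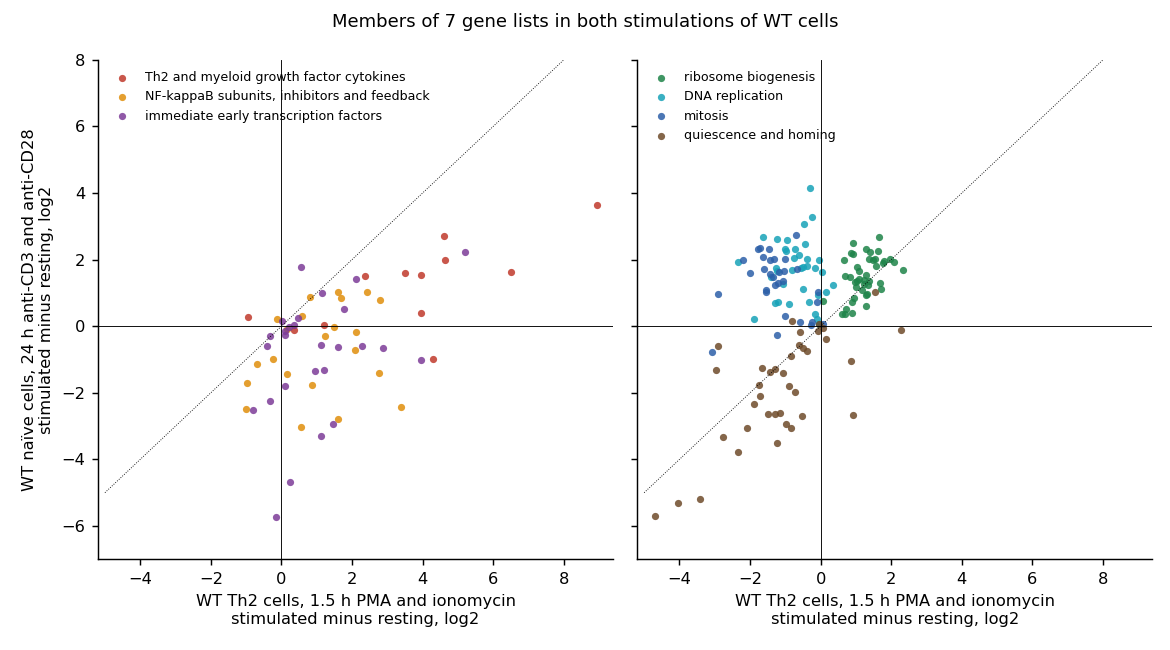
Log2 difference between stimulated and resting cells in WT Th2 cells (1.5 h, horizontal axis) and WT naïve cells (24 h, vertical axis) for the tested members of 7 gene lists, with the dotted line of equality. Mitosis and DNA replication genes lie mostly in the upper left, lower in Th2 and higher in naïve cells, and ribosome biogenesis genes lie mostly in the upper right, with medians of 1.23 and 1.46.

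Gene structure differed between the gains and the losses. By RefSeq (GRCm38.p6), which gave a length for 98.8% of the genes, the median gene length was 17.8 kb for induced, 24.6 kb for lost and 20.5 kb for all genes tested. For the 50 largest gains it was 7.37 kb and for the 50 largest losses 31.2 kb. Genes under 10 kb made up 60.0% of the 50 largest gains, 18.0% of the 50 largest losses and 29.1% of all genes. These lengths are a description, and no test was run on them.

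Promoters were read from 250 bases before to 50 bases after the start of each gene in RefSeq, on GRCm38.p6, which held 1 or more promoters for 38 of the 50 largest gains, 26 of the 31 mitosis genes and 8258 of all genes tested. Motifs were searched on both strands, matches of different motifs may overlap, and the AP-1 site TGACTCA was present in 14.8% of the promoters of the 50 largest gains (8 of 54), in 5.71% of those of all induced genes and in 4.02% of those of all genes tested. The NFAT core GGAAAA was in 42.6%, 23.2% and 20.8% in the same order, the TATA sequence TATAAA in 22.2%, 8.65% and 8.20%, and the κB consensus in 9.26%, 8.48% and 5.18%. The E-box CACGTG was in 25.6% of the promoters of ribosome biogenesis genes (10 of 39) and 9.51% of all.

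The 250 bases before the start are shown for the 4 eligible genes of largest gain with an AP-1 match there, chosen after the values were seen, with each match in capitals. Promoters on a chromosome set apart from display were not eligible. Their log2 differences were 5.30 for Tpbg, 4.39 for Tnfsf14, 4.02 for Srxn1, which encodes sulfiredoxin, and 3.86 for the collagenase gene Mmp13.
Tpbg (chr9:85842130-85842379, plus strand): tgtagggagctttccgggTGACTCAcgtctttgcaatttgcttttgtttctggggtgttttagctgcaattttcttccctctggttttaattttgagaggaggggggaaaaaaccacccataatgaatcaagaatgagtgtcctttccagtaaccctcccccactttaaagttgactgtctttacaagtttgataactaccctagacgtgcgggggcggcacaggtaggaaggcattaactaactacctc
Tnfsf14 (chr17:57194182-57194431, minus strand): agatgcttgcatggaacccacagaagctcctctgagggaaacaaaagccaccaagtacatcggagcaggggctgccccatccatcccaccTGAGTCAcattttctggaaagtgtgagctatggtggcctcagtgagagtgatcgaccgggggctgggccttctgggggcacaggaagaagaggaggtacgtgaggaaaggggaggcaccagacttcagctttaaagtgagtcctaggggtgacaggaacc
Srxn1 (chr2:152105274-152105523, plus strand): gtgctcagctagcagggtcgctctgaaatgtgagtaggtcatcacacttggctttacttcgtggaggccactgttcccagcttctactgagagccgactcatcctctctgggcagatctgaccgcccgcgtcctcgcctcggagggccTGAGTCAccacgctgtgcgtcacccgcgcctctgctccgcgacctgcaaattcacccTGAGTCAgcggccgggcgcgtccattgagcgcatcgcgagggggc
Mmp13 (chr9:7272264-7272513, plus strand): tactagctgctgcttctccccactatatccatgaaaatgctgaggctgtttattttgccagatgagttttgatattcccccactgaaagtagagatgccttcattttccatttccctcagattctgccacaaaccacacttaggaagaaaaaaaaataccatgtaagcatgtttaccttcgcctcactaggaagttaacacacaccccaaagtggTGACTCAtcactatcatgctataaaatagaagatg
The match ended 29 bases before the start in Mmp13 and 226 bases before it in Tpbg, and Srxn1 held 2. A match describes these letters in this window and is not evidence of binding.

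Mitosis genes shared motifs that the choice of arrays did not use. The cell cycle element TTTGAA (CHR) was in 82.1% of their promoters (23 of 28) against 12.7% for all genes tested, and CCAAT was in 78.6% against 38.2%. Among those with a promoter, 16 of the 19 lost and 5 of the 7 not called genes held a CHR. Cdc25b, Nusap1 and Birc5 were lost without one in this window. The 250 bases before the start are shown for the 4 genes of largest fall with both motifs there, among promoters eligible for display as above, with CHR and CCAAT matches of either strand in capitals.
Prc1 (chr7:80294226-80294475, plus strand): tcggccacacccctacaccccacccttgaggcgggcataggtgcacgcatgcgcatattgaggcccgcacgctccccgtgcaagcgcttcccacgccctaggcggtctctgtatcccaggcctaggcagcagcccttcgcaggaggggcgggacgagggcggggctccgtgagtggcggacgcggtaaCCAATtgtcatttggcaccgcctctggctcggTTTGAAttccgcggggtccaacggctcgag
Top2a (chr11:99024190-99024439, minus strand): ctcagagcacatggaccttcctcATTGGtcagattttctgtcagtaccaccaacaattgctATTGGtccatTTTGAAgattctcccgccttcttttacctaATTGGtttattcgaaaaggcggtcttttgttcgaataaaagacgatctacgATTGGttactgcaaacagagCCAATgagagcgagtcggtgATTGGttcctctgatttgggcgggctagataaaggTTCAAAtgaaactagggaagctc
Kif11 (chr19:37376132-37376381, plus strand): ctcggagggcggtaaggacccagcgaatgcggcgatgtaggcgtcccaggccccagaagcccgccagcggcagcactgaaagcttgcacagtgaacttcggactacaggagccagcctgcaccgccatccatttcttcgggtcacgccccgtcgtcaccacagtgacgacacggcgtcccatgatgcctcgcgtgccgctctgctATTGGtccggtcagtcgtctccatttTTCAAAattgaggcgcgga
Espl1 (chr15:102296043-102296292, plus strand): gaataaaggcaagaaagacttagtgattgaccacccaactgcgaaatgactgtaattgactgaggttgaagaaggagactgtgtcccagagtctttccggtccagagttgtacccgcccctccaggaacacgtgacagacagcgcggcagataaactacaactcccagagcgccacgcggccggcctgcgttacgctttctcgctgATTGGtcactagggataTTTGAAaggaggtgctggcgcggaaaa
Top2a, which encodes topoisomerase IIα, fell by 1.77, the spindle motor gene Kif11 by 1.64 and the separase gene Espl1 by 1.62 (limma adjusted p = 0.000358, 0.000279 and 0.000356). In each of the 4 a CHR lay within 30 bases of the start, and a CCAAT match lay upstream of it. Top2a held 6 CCAAT matches and 2 CHR matches.

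**Figure D5:**
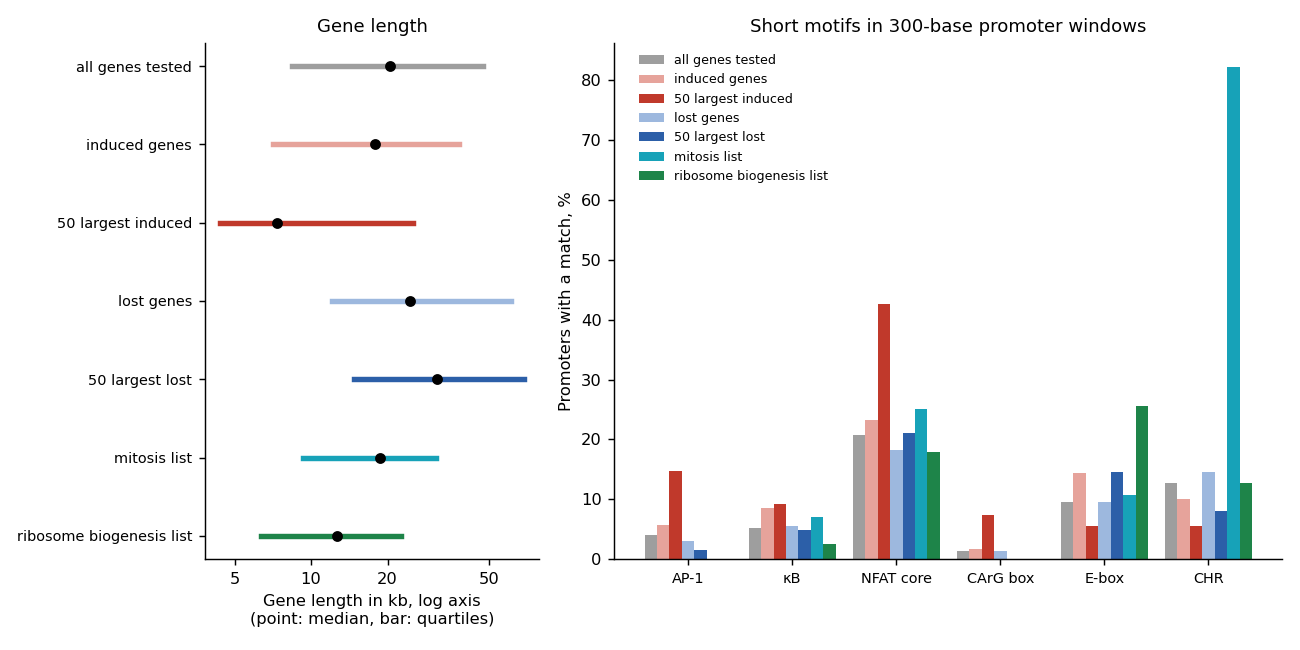
Gene length (left, log axis in kb, median and quartiles) and the percentage of promoters with a match to 6 short motifs (right) for genes grouped by their response and for 2 gene lists. The 50 largest gains had a median length of 7.37 kb against 20.5 kb for all genes tested, and CHR matches stand out in the mitosis list at 82.1%.

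The limit of size cut through a continuous range. Just inside it lay Slc5a3, a myo-inositol transporter gene that was not detected at rest and rose at least 1.56-fold, and Faf1 (-1.0005), and just outside Trim59 (-0.9996) and B4galt7 (-0.9996). Slc5a3 lost its call in 4 and Faf1 in 2 of the 6 fits without 1 array. Of the 139 called genes that the naming rule chose, 15 lost it in at least 1 of these fits. Beside those given above these were Lgals3, Arid5a and Pclaf.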

How the data were processed

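RNA of 24 samples was hybridised to Illumina MouseRef-8 v2 BeadChips. The authors deposited the mean bead intensity of each probe, not normalized, and a detection p-value from GenomeStudio 1.6.0 (the version per the submitters' processing notes). Dim probes carry the scanner's background in these values, which compresses their differences. Intensities were background corrected, given an offset of 16, quantile normalized over 24 arrays and put on the log2 scale with neqc in limma 3.58.1 (R 4.3.3). Probes with a detection p-value of at most 0.02 on 1 or more arrays were kept. A linear model with 8 group means (16 residual degrees of freedom, 20.3 after moderation) was fitted with lmFit and eBayes, and p-values were adjusted over all 14246 kept probes by the method of Benjamini and Hochberg. A gene was taken from its brightest probe over the WT Th2 groups. Genes were named through Entrez identifiers (16938 probes), RefSeq accessions (7418), symbols (467) or synonyms (553), and 321 probes kept the name in the file. The precision is set by the 3 arrays per group, as the number of beads behind a value was not analysed here.

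For a probe not detected on any array of a group, the other group's mean was set against the lowest signal of a detected probe on each array, or the probe's own signal where higher, and written as at least N-fold. Responses were compared by interaction terms. Named are the 15 largest gains and losses without overlap, up to 4 called members with the largest difference in each list, any member of lists with 16 or fewer kept genes, Il4, Il5, Il13, Il10, Gata3, Egr1, Klf2 and Pbrm1, the 5 largest interactions in each direction, and genes at the limit of size. Genes and lists were chosen with earlier results of these data known. Fos, Fosb, Fosl1, Jun, Junb, Egr3, Myc, Ltb, Il16, Tnfrsf18, Gimap5, Slfn2, Tcf7, Lef1, Pik3ip1 and the genes whose promoters are shown fall outside this rule or, as Tpbg and Tnfsf14, were picked for display, after their values were seen.

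Alternatives were the 6 arrays alone, Z-score normalization, the Z-ratio, FDR and p criteria of the study's methods applied to the neqc values, normexp with an offset of 50, no background correction, no filter, a stricter filter, no moderation, any probe of a gene, normalization within the Th2 arrays, a replicate block, and leaving out each array. The scripts were tested on simulated data. Promoters and gene lengths are from RefSeq (GRCm38.p6), with figures drawn in Python 3.11.15.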

Additional observations from a re-analysis of the deposited data

Results flagged for a closer look

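The responses of WT Th2 cells to PMA and ionomycin (1.5 h) and of WT naïve cells to anti-CD3 and anti-CD28 (24 h) differed by the interaction test at 3567 probes (limma adjusted p below 0.05). The 5 largest positive fitted differences were 7.72 for Slc40a1, 7.07 for Fcna, 6.91 for Vcam1, 6.01 for Lyz1 and 5.93 for C1qb, genes best known from macrophages and stroma. In WT Th2 cells 4 of them were detected on none of the 6 arrays and Lyz1 on 1 resting array, so that these values depend on the offset, bound nothing and have no firm order. All 5 were detected on the 3 resting naïve arrays. After stimulation Slc40a1 and Fcna were detected on no naïve array and were at least 177-fold and at least 106-fold lower there, while Vcam1 and C1qb were detected on 1 and Lyz1 on 2 of the 3 arrays. None of the 5 was called in Th2 cells. Of 13 tested myeloid markers 11 were lower in naïve cells after stimulation and none was called in Th2 cells.

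The 5 largest negative differences were -4.43 for Clspn, -4.43 for Mcm10, -4.28 for Tyms, -4.27 for Tk1 and -4.24 for Pclaf, genes of DNA replication and its checkpoint. Each rose in naïve cells, by 2.64, 4.14, 2.66, 1.93 and 2.45, and their differences in Th2 cells were -1.78, -0.29, -1.62, -2.34 and -1.78. In Th2 cells Mcm10 was not called and the other 4 were lost, and Pclaf lost its call in 3 of the 6 fits without 1 array. Agent, duration and cell type cannot be told apart in these differences, and no group of 3 arrays was tested for samples that stand apart.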

How the results depend on the processing

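The 610 induced and 743 lost genes became 390 and 415 with Z-score normalization, 391 and 425 with no background correction and 332 and 338 with normexp at an offset of 50. Of these, 390 and 413, 390 and 425, and 332 and 338 were among the genes called above. These settings compress differences at low signal, and the probes with an adjusted p below 0.05 stayed between 3596 and 3815 in them. Without one array, 597 to 637 genes were induced and 689 to 798 lost, 3138 to 3455 probes passed in WT Th2 cells, and 2989 to 3428 differed from the naïve response. The interaction with BAF180-deficient cells gave 0 to 1 probes, the 1 probe appearing without stimulated array A and without stimulated array C. The other alternatives gave 540 to 663 induced and 636 to 786 lost genes. Among 4380 values of 261 named genes over 17 settings, 121 lost and 21 gained a call and 0 reversed.

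Arrays of the same letter did not deviate together in every case (correlations of 0.0232, 0.383 and 0.376 for A, B and C). Those of unlike letters ranged from -0.439 to 0.181, so B and C went most with their own letter and A did not. As no label ties a letter to an animal either, the letters were not taken as pairs in the main fit. With the letter as a replicate block, 623 genes were induced and 757 lost, 4125 probes passed, 3784 differed from the naïve response and 0 from the BAF180-deficient one. On the 6 arrays alone, the replicate block gave 622 and 758 genes and 4264 probes. The slide as a block was not run, as no slide was read from the headers. The 3 arrays per group limit what the data can resolve, and probes near background bound a change from below.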
